A study of Homo sapiens with 6 samples.

Results

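The genes described here are 45 genes of the endoplasmic reticulum (ER): stress sensors and their transcription factors, chaperones, disulfide isomerases, factors of ER-associated degradation, and subunits of the translocon. They were taken by gene symbol from poly(A) RNA-seq count tables of 6 libraries. All 45 symbols matched 1 row of the 56832 in each table, and all 45 passed the filter on low counts, which kept 17415 rows. The libraries come from HEK293T, a human embryonic kidney epithelial line, in which GLO1 had been knocked out. GLO1 encodes the enzyme that starts the clearance of methylglyoxal (MGO), a reactive dicarbonyl that arises from glycolysis and modifies proteins. Libraries 1, 2 and 4 were untreated, and libraries 1, 3 and 4 of the other group came from cells given 0.2 mM MGO overnight. Both groups carry the GLO1 knockout, so the comparison shows MGO within knockout cells, and cells with intact GLO1 were not analysed here. The sources used here do not give whether the line is 1 clone, or whether untreated cells received the PBS in which MGO was diluted.

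Secreted and membrane proteins enter the ER through the translocon, fold there with chaperones such as BiP, and are oxidised by disulfide isomerases. Proteins that fail to fold are recognised, pulled back to the cytosol and degraded by the proteasome. When unfolded proteins build up, the sensors IRE1, ATF6 and PERK start the unfolded protein response. IRE1 cuts an intron out of the XBP1 message, ATF6 is cleaved in the Golgi to release a transcription factor, and PERK phosphorylates eIF2, which slows translation and favours ATF4. Spliced XBP1 and cleaved ATF6 then raise transcription of chaperones and degradation factors.

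Total counts ranged from 41002134 to 45910040 in untreated and from 19195920 to 21544749 in MGO libraries, and depth and treatment cannot be told apart. The labels do not say whether libraries came from separate cultures, and the p-values rest on the spread among libraries alone. GLO1 itself was counted at 51.0, 46.9 and 46.2 CPM in untreated libraries 1, 2 and 4 and at 134, 142 and 145 CPM in MGO libraries 1, 3 and 4, and such gene-wide values do not check the knockout. Of 8 markers expected in this line, 7 were above 1 CPM in every library, and NEFM was below it in MGO. Summed markers of blood cells stood at 0.129 to 0.258 CPM without MGO and 0.475 to 0.774 CPM in MGO, with CD3E at 0 in all 3 untreated libraries. Summed endothelial markers stood at 0.146 to 0.172 and 0.285 to 0.442 CPM, and summed fibroblast markers, mostly COL1A1, at 23.7 to 25.1 and 11.2 to 13.2 CPM. Mitochondrial transcripts took 4.20% to 5.42% of counts in untreated and 5.34% to 8.17% in MGO libraries, highest in library 1 of each group, and the part of this share in the results was not tested. Levels below are CPM (counts scaled by TMM to libraries of 1000000), so they are shares of a library. In such bulk values fewer cells that express a gene and less RNA of it per cell cannot be told apart.

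The message of the transcription factor XBP1 rose strongly in MGO while most of the ER genes listed below as targets of it or of ATF6 did not rise. XBP1 went from 63.2 ± 1.63 to 232 ± 11.99 CPM (SD, n = 3 per group), a 3.66-fold rise, whereas BiP (HSPA5) went from 421 ± 13.7 to 360.4 ± 10.2 CPM and the isomerase gene PDIA4 from 325 ± 3.01 to 127 ± 8.99 CPM. Of the 45 genes, 13 were higher and 23 lower in MGO and 9 were not called (edgeR quasi-likelihood test, adjusted p under 0.05). That is 28.9% higher and 51.1% lower, against 41.8% higher and 41.2% lower over all genes tested. In all, 80% of the 45 were called, near the 83.1% of all genes, so the count of called genes does not set these genes apart. Rises of at least 2-fold numbered 2 (4.44%, against 19.8% of all genes). Falls of at least 2-fold numbered 6 (13.3%), near the 16.7% of all genes. The median log2 fold change of the 45 was -0.12, against 0.005 for all genes, and its median size was 0.35, against 0.71. These comparisons were not matched for level: all 45 passed a filter of 1 CPM in every library, which kept only 12790 genes. The groups did not overlap for 37 of the 45 (82.2%, against 83.5% of all genes). Of the 36 called changes, 9 were under 1.25-fold. With library size as the only scaling, which lowers all log2 changes by about 0.11, 9 were higher and 27 lower. With no filter on low counts, which lowers them by about 0.18 through its scaling factors, 8 were higher and 32 lower. Of the calls over all genes, 45.5% were higher with library size only, against 50.3% as reported. With no filter that share was 50.3%, over a larger set of 35722 genes tested. Under all 16 alternatives tried, 30 of the 45 genes kept their call and direction, 8 higher and 22 lower. How many of all genes did so was not counted.

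**Figure D1:**
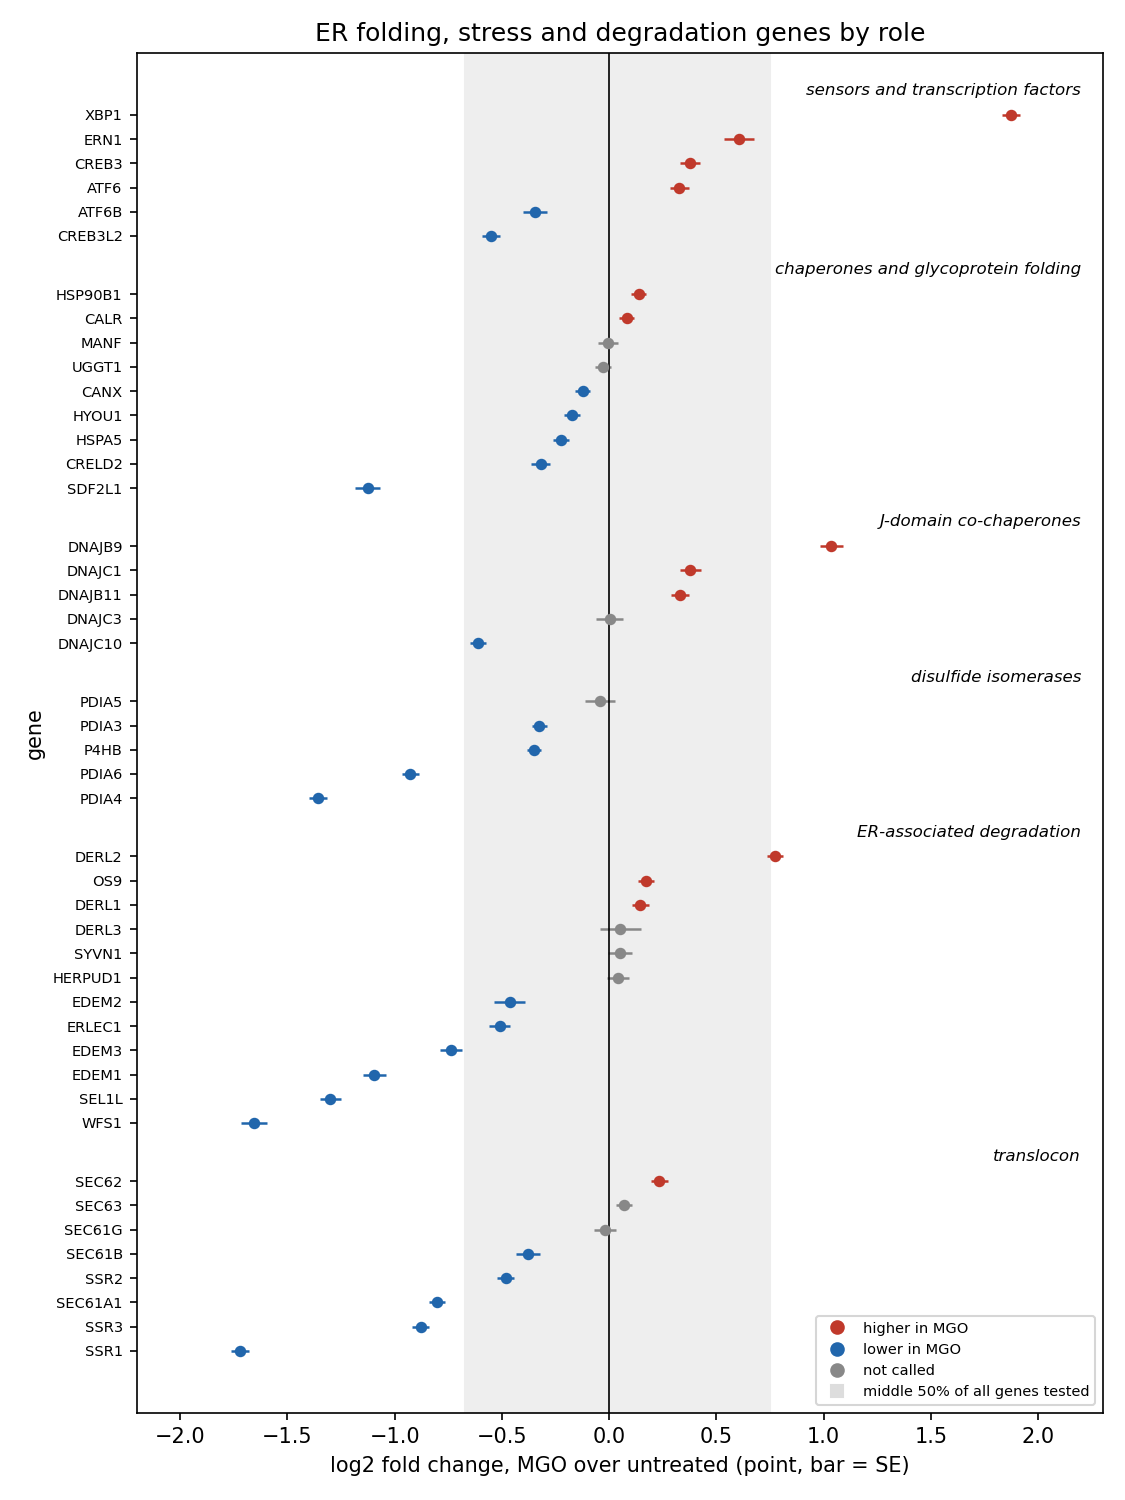
Log2 fold change (x axis, MGO over untreated) with its SE for the 45 genes (y axis), grouped by role. Red points were higher, blue points lower and grey points not called, and the grey band holds the middle 50% of all genes tested (-0.67 to 0.75). XBP1 at 1.87 stands farthest right, and SSR1 at -1.72 and WFS1 at -1.66 farthest left.

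Among the sensors and transcription factors, 4 of 6 rose and 2 fell, with a median log2 fold change of 0.35. That is 66.7% higher and 33.3% lower, beside 41.8% and 41.2% of all genes tested. XBP1 (chr22:28794555-28800597, minus strand, GRCh38, GENCODE release 29) stood at 61.8, 65.0 and 62.9 CPM in untreated libraries 1, 2 and 4 and at 219, 233 and 243 CPM in MGO libraries 1, 3 and 4. Every MGO library stood far above all untreated ones (log2 fold change 1.87, SE 0.042, adjusted p = 4.31e-27). ERN1, which encodes IRE1, the kinase and nuclease that splices XBP1, was low, at 12.2, 12.6 and 13.4 CPM without MGO and 17.8, 18.9 and 21.0 CPM in MGO libraries. It rose 1.52-fold without overlap between the groups (adjusted p = 3.16e-09).

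ATF6 and its relative ATF6B, membrane-bound factors that are released by cleavage in the Golgi, went in opposite directions. ATF6 stood at 71.8, 75.2 and 70.8 CPM without MGO and 85.1, 91.8 and 96.0 CPM in MGO libraries, a 1.25-fold rise. ATF6B stood at 41.8, 46.0 and 46.9 CPM and 37.7, 36.2 and 32.4 CPM, 1.27-fold lower in MGO. CREB3 and CREB3L2 encode further membrane-bound factors of the same cleaved kind, and they too were split. CREB3 rose from 41.9 ± 1.98 to 54.4 ± 1.91 CPM (n = 3, log2 fold change 0.38) and CREB3L2 fell from 86.7 ± 0.258 to 59.2 ± 3.11 CPM (log2 fold change -0.55). In GENCODE, 10.9% of the ATF6B exon bases also belong to a gene on the same strand. Of the CREB3 exon bases, 10.9% also belong to neighbours on the other strand. The sources used here do not give whether strand was used in counting.

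Counts per gene do not show how much XBP1 message was spliced, which is the step that makes the active factor. GENCODE release 29 holds a transcript with the intron and one without it, and the intron lies inside exon 4 of 5 as 26 coding bases at chr22:28796124-28796149 (GRCh38, minus strand). The stretch is shown because it is what IRE1 removes. It is written 5′ to 3′ with 20 bases on each side, the 26 bases that the spliced form lacks are in capitals, and the same bases repeat at both edges, so the cut can be drawn a few bases to the left without changing the spliced message.
XBP1 intron: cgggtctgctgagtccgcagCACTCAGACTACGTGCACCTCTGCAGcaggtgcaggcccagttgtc
Reads with and without these bases fall in the same row of the count table, so the 3.66-fold rise is of both forms together.

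Abundant chaperones changed little. HSPA5 (BiP, the ER member of the HSP70 family and regulator of the sensors; chr9:125234853-125241330, minus strand) stood at 405, 429 and 429 CPM without MGO and 372, 354 and 355 CPM in MGO libraries. All 3 MGO libraries lay below the untreated ones, and the fall was 1.17-fold (log2 fold change -0.22, SE 0.0362, adjusted p = 1.47e-06). HSP90B1, the ER form of HSP90 (GRP94), stood at 580.1, 609 and 625 CPM and 687, 657 and 653 CPM and rose 1.10-fold (adjusted p = 0.000781), a call lost with library size as the only scaling (log2 fold change 0.031) and turned below 0 with no filter on low counts (-0.045). HYOU1, a large HSP70-like chaperone that exchanges nucleotide on BiP, was at 173, 174 and 173 CPM and 153, 153 and 154 CPM, 1.13-fold lower. Of the HYOU1 exon bases, 14.1% also belong to a gene on the other strand.

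The lectin chaperones that hold glycoproteins also moved by little. CANX (calnexin) fell from 1039 ± 20.2 to 953 ± 27.7 CPM (n = 3, log2 fold change -0.12, adjusted p = 0.00125), and CALR (calreticulin) went from 822 ± 10.8 to 870.1 ± 23.3 CPM (adjusted p = 0.0262, log2 fold change 0.081). The CALR call was lost when any 1 library was left out (adjusted p = 0.0524 to 0.250) and its sign turned with library size as the only scaling (-0.025) and with no filter on low counts (-0.10). Of the CALR exon bases, 14.2% also belong to a gene on the other strand. The CANX call was lost under a filter of 1 CPM in all libraries (log2 fold change -0.059, adjusted p = 0.135) and with the replicate number as a block (adjusted p = 0.137). UGGT1, the glucosyltransferase that senses misfolded glycoproteins, was not called, at 131 ± 1.49 CPM without and 128 ± 3.93 CPM with MGO (log2 fold change -0.029, adjusted p = 0.489). It was called lower without MGO replicate 4 (-0.090, adjusted p = 0.0318), with library size only (-0.13) and with no filter on low counts (-0.21).

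Smaller ER stress proteins differed among themselves. SDF2L1, a cofactor of the BiP cycle, had 48.8, 48.7 and 50.1 CPM without MGO and 25.4, 21.0 and 21.4 CPM in MGO libraries. It fell 2.18-fold (log2 fold change -1.13, SE 0.0578, adjusted p = 8.69e-18), the largest fall among the 9 chaperone genes. CRELD2, a secreted ER stress protein, fell from 64.0 ± 1.91 to 51.3 ± 0.732 CPM (log2 fold change -0.32). MANF, a neurotrophic factor kept in the ER by BiP, was not called, at 53.2 ± 2.48 CPM without and 53.0 ± 2.398 CPM with MGO (log2 fold change -0.007, adjusted p = 0.898), but was called lower with library size only (-0.11) and with no filter (-0.19). Across the 9 genes, 2 rose (22.2%), 5 fell (55.6%) and 2 were not called, beside 41.8% higher and 41.2% lower of all genes tested. Their summed level was 3341, 3378 and 3353 CPM without MGO against 3293, 3226 and 3253 CPM in MGO libraries, a ratio of 0.970.

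**Figure D2:**
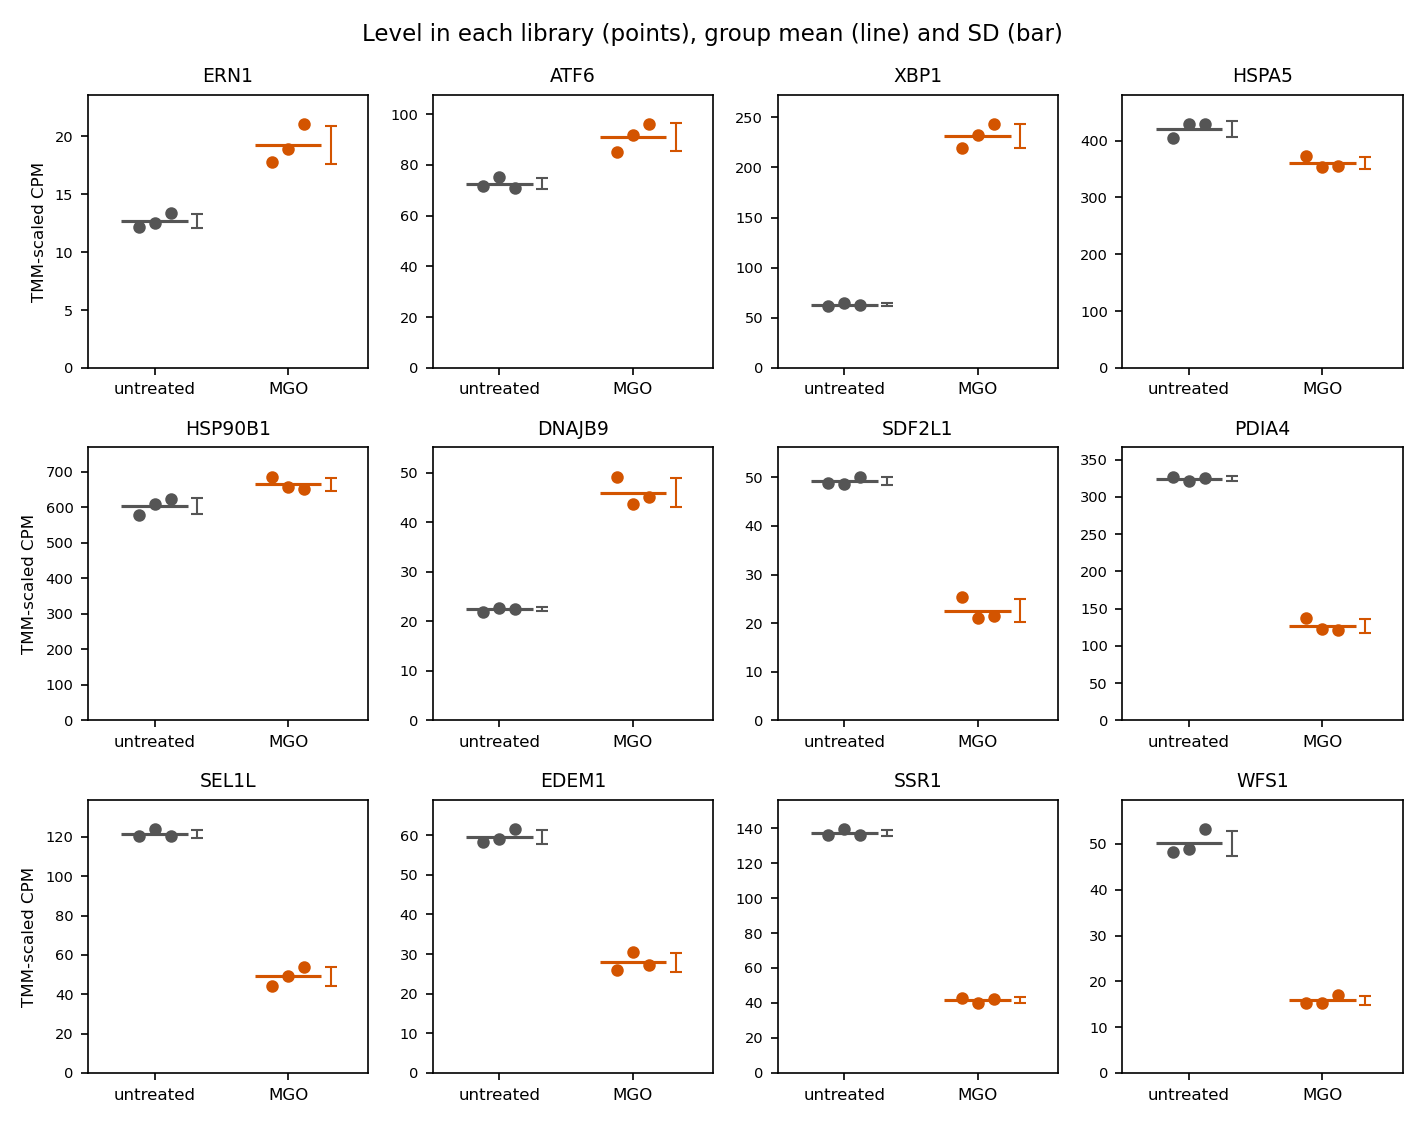
TMM-scaled CPM (y axis, from 0) of 12 genes in each untreated and MGO library (points), with the group mean (line) and SD (bar), n = 3 per group. XBP1 and DNAJB9 are at least 2-fold higher in MGO, HSPA5 and HSP90B1 differ by little, and SDF2L1, PDIA4, SEL1L, EDEM1, SSR1 and WFS1 are at least 2-fold lower.

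J-domain proteins deliver clients to BiP and trigger its ATPase, and 3 of the 5 rose (60%, beside 41.8% of all genes tested). DNAJB9 (ERdj4, which also binds IRE1) had 21.9, 22.8 and 22.6 CPM without MGO and 49.2, 43.8 and 45.04 CPM in MGO libraries. Each MGO library was well above all untreated ones, a 2.05-fold rise (log2 fold change 1.03, SE 0.0532, adjusted p = 8.7e-18), and DNAJB9 and XBP1 were the only 2 of the 45 genes to rise at least 2-fold. DNAJB11 (ERdj3, a soluble co-chaperone) rose from 54.4 ± 0.514 to 68.4 ± 1.58 CPM and DNAJC1 (ERdj1, a membrane J protein) from 35.0 ± 1.95 to 45.6 ± 0.523 CPM (n = 3). DNAJB11 shares 34.7% of its exon bases with other genes, among them TBCCD1 on the other strand, and its value is therefore uncertain. DNAJC3 (P58IPK, a co-chaperone that also inhibits eIF2 kinases) was not called, at 33.8 ± 1.33 CPM without and 33.9 ± 4.11 CPM with MGO, with groups that overlap and a call of lower with no filter on low counts (-0.18). DNAJC10 (ERdj5, a J protein that reduces disulfides before degradation) fell from 137 ± 1.69 to 89.8 ± 2.11 CPM (log2 fold change -0.61).

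Disulfide isomerase genes were lower or not called. PDIA4 (ERp72; chr7:149003062-149028641, minus strand) had 327, 321 and 325 CPM without MGO and 137, 122 and 121 CPM in MGO libraries. The MGO libraries held less than the lowest untreated value by a wide margin, 2.56-fold lower (log2 fold change -1.36, SE 0.042, adjusted p = 1.57e-23). PDIA6 (P5, an isomerase that also acts on IRE1) had 290.0, 283 and 283 CPM and 156, 154 and 140.2 CPM, 1.90-fold lower. P4HB (PDI itself, the most abundant isomerase message) fell from 692 ± 10.6 to 543 ± 1.98 CPM (log2 fold change -0.35) and PDIA3 (ERp57, the partner of the lectin chaperones) from 308 ± 3.73 to 246 ± 5.55 CPM (-0.32). PDIA5 was not called, at 15.2 ± 0.693 CPM without and 14.8 ± 0.269 CPM with MGO (log2 fold change -0.044, adjusted p = 0.559), but was called lower with library size only (-0.15) and with no filter (-0.23). Of the exon bases of PDIA6, PDIA3 and P4HB, 29.7%, 21.5% and 20.3% also belong to genes on the other strand. Together the 5 genes took 1637, 1606 and 1632 CPM without MGO and 1103, 1081 and 1057 CPM in MGO libraries, a ratio of 0.665.

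ER-associated degradation was split between its parts. SEL1L, the adaptor that stabilises the HRD1 ubiquitin ligase, had 120.5, 124 and 121 CPM without MGO and 44.3, 49.5 and 54.0 CPM in MGO libraries. It fell 2.46-fold (log2 fold change -1.30, SE 0.0486, adjusted p = 2.95e-19). SYVN1, which encodes HRD1, was not called, at 35.3 ± 1.80 CPM without and 36.5 ± 2.36 CPM with MGO (log2 fold change 0.050, adjusted p = 0.393). HERPUD1, which helps assemble the ligase and is a classical ER stress gene, was not called either, at 31.0 ± 0.895 CPM without and 31.9 ± 0.639 CPM with MGO (log2 fold change 0.042, adjusted p = 0.456). With no filter on low counts both were called lower, SYVN1 at a log2 fold change of -0.13 (adjusted p = 0.0266) and HERPUD1 at -0.14 (adjusted p = 0.0225), and SYVN1 was called higher after thinning of the untreated libraries (0.15, adjusted p = 0.0288). The adaptor thus fell while its ligase was not called, and the difference between the 2 genes was not tested.

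All 3 EDEM genes, whose products trim mannose from misfolded glycoproteins, fell. EDEM1 had 58.2, 59.0 and 61.5 CPM without MGO and 25.9, 30.5 and 27.3 CPM in MGO libraries and fell 2.14-fold (adjusted p = 2.08e-18). EDEM3 went from 53.4 ± 1.94 to 31.97 ± 1.28 CPM (log2 fold change -0.74) and EDEM2 from 18.0 ± 0.779 to 13.1 ± 1.21 CPM (-0.46). The lectins that read the trimmed glycans were split, with ERLEC1 (XTP3-B) lower, from 58.1 ± 1.14 to 40.7 ± 2.86 CPM (log2 fold change -0.51), and OS9 higher, from 161 ± 4.87 to 182 ± 2.31 CPM (0.17). The OS9 call was lost with library size as the only scaling (log2 fold change 0.065), and with no filter on low counts its sign turned (-0.012). OS9 shares 24.4% of its exon bases with a gene on the other strand.

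Derlins form part of the exit channel, and DERL2 was the member of this group that rose most. DERL2 had 77.3, 73.7 and 75.5 CPM without MGO and 128, 128 and 132 CPM in MGO libraries, a 1.71-fold rise (adjusted p = 3.3e-18). DERL1 rose from 82.0 ± 0.462 to 90.7 ± 1.68 CPM (log2 fold change 0.15), a call lost with library size as the only scaling (0.040) and turned in sign with no filter on low counts (-0.037). DERL3 was low, at 6.69 ± 0.293 CPM without and 6.95 ± 0.614 CPM with MGO, and not called, and 87.3% of its exon bases also belong to SMARCB1 on the other strand. WFS1, an ER membrane protein of calcium handling that restrains ATF6 and is mutated in Wolfram syndrome, had 48.2, 49.0 and 53.2 CPM without MGO and 15.3, 15.4 and 17.0 CPM in MGO libraries. It fell 3.15-fold (log2 fold change -1.66, SE 0.0604, adjusted p = 1.17e-21), which puts it at percentile 6.57 of all genes tested. Of the 12 genes in this group 3 rose (25%), 6 fell (50%) and 3 were not called, with a median log2 fold change of -0.21. Over all genes tested 41.8% were higher and 41.2% lower.

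Among the translocon genes, those of the TRAP complex, which assists entry of many signal peptides, fell together. SSR1 (TRAP alpha; chr6:7268306-7347446, minus strand) had 136, 139 and 136 CPM without MGO and 43.0, 39.7 and 42.1 CPM in MGO libraries. It showed the lowest log2 fold change of the 45 genes (-1.72, SE 0.042, adjusted p = 3.67e-26), a 3.30-fold fall. SSR3 (TRAP gamma) had 146, 145 and 141 CPM and 76.9, 78.4 and 79.4 CPM and fell 1.84-fold, and SSR2 (TRAP beta) fell from 173 ± 3.83 to 124 ± 4.41 CPM (n = 3, 1.397-fold). The fourth subunit, SSR4, from the list of other genes, was not called, at 164 ± 1.41 CPM without and 159 ± 8.63 CPM with MGO (adjusted p = 0.289).

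Of the 3 subunits of the SEC61 channel 2 fell. SEC61A1, the pore-forming alpha subunit, had 277, 276 and 272 CPM without MGO and 152, 161 and 160.0 CPM in MGO libraries and fell 1.75-fold (adjusted p = 5.88e-19). Its close paralog SEC61A2 went from 55.8 to 52.1 CPM (log2 fold change -0.10). SEC61B, the beta subunit, fell from 85.7 ± 1.95 to 66.0 ± 7.23 CPM (-0.38), and SEC61G, the gamma subunit, was not called, at 50.5 ± 1.07 CPM without and 49.9 ± 4.93 CPM with MGO. SEC61G was called lower, however, without MGO replicate 1 (log2 fold change -0.13, adjusted p = 0.0106) and without both libraries numbered 1 (-0.12, adjusted p = 0.0258), as it was with library size only (-0.12) and with no filter (-0.20). SEC62 and SEC63 are membrane partners that open the channel for proteins made before entry. SEC62 rose from 89.7 ± 1.97 to 105.5 ± 5.23 CPM (log2 fold change 0.23), a call lost with no filter on low counts (0.051, adjusted p = 0.341), and SEC63 was not called, at 170.2 ± 2.89 CPM without and 178 ± 1.97 CPM with MGO (log2 fold change 0.068, adjusted p = 0.0905). The SEC63 value sat near the threshold: it was called higher with 5 alternatives and lower with no filter on low counts (-0.12).

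The sensors and transcription factors were set beside genes that ATF6 and XBP1 control. Their class also holds ATF6B, CREB3 and CREB3L2, for which no targets were listed, and it leaves out PERK. For this, 10 genes were listed as ATF6-type (HSPA5, HSP90B1, CALR, PDIA4, HYOU1, CRELD2, SDF2L1, MANF, HERPUD1 and DNAJB11) and 10 as XBP1-type (DNAJB9, DNAJC3, DNAJC10, EDEM1, EDEM2, PDIA5, SEC61A1, SEC61B, SSR1 and SSR3) from general knowledge of the 2 factors, whose targets overlap. Both classes were set with earlier results of these data known, and their shares and medians depend on which genes were listed. Among genes in neither class, DERL2 and DERL1 rose, SYVN1 was not called, and SEL1L, EDEM3 and PDIA6 fell. Of the ATF6-type genes the median change was small, with 3 higher, 5 lower and 2 not called and a median log2 fold change of -0.090. XBP1-type genes were mostly lower, with 1 higher (DNAJB9), 7 lower and 2 not called and a median of -0.54. That is 30% higher and 50% lower for the ATF6-type and 10% and 70% for the XBP1-type genes. Over all genes tested the shares were 41.8% and 41.2%. The summed level of the XBP1-type genes was 930.2, 933 and 922 CPM without MGO and 575, 562 and 569 CPM in MGO libraries, a ratio of 0.613, and that of the ATF6-type genes 2572, 2602 and 2618 against 2479, 2370 and 2360 CPM, a ratio of 0.925. Within a library, where scaling plays no part, there were 15.3, 15.2 and 14.7 XBP1 counts for every 100 HSPA5 counts in untreated, and 58.9, 65.7 and 68.5 in MGO libraries. These class values are descriptions without a test.

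**Figure D3:**
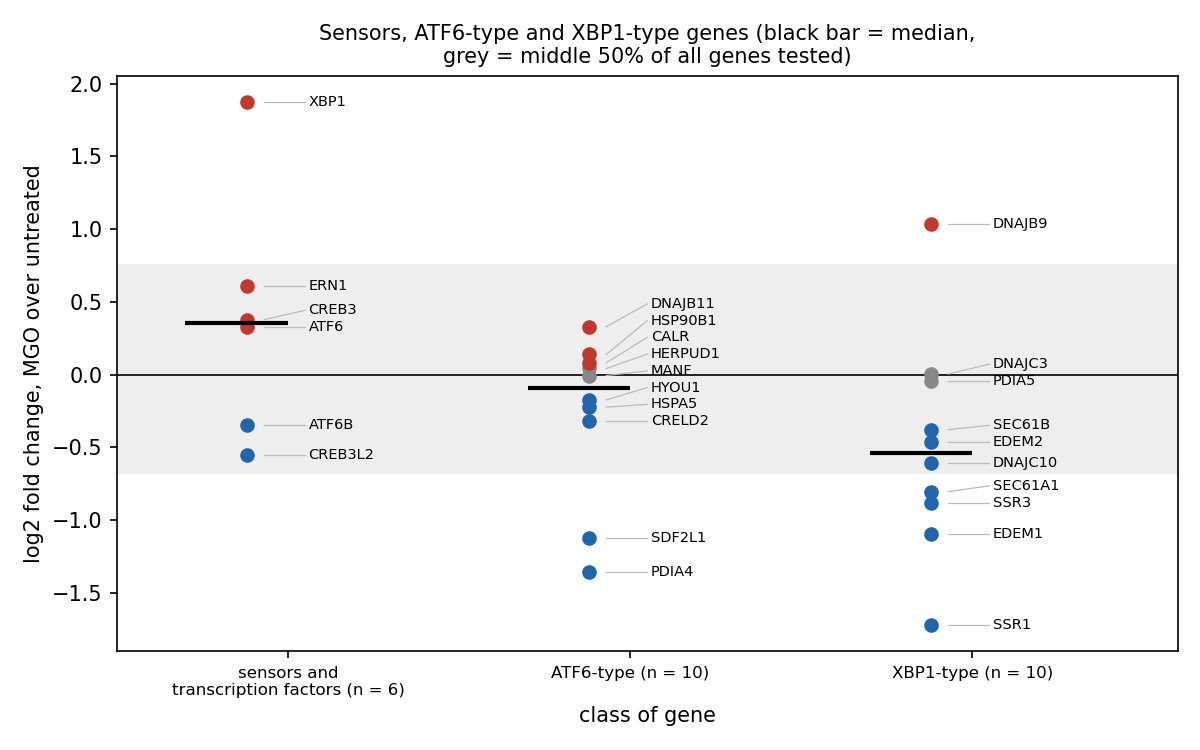
Log2 fold change (y axis, MGO over untreated) of the 6 sensors and transcription factors, the 10 ATF6-type and the 10 XBP1-type genes (x axis), with the class median as a black bar. Red points were higher, blue lower and grey not called, and the grey band is the middle 50% of all genes tested. The medians lie at 0.35, -0.090 and -0.54.

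Promoters of these genes were searched for the elements through which ATF6 and XBP1 act, which the rule for the 45 genes did not name, although several of these promoters are the textbook examples of the elements. RefSeq promoter windows (GRCh38.p14, 250 bases before to 50 after the start) matched 41 of the 45 genes, all but DNAJC1, PDIA3, DERL1 and DERL3. The ER stress response element (ERSE) was taken as CCAAT and CCACG with 9 bases between, the shorter ERSE-II as ATTGG and CCACG with 1 base between, and the unfolded protein response element (UPRE) as TGACGTGG, each on both strands. An ERSE was found in 6 of the 41 windows (14.6%) against 0.0769% of 35116 promoters, an ERSE-II in 3 (7.32% against 0.0541%) and a UPRE in 3 (7.32% against 0.729%). A UPRE in HYOU1 overlaps one of its ERSE-II matches. ERSE or ERSE-II stood in 7 of the 10 ATF6-type and 0 of the 10 XBP1-type windows, and since such elements helped to define these targets in earlier work, that split is no finding.

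The 9 genes with an ERSE or ERSE-II are shown, as the text compares their changes. Each line is 5′ to 3′ along the gene with the match in capitals and 5 bases on each side, and a match on the opposite strand appears as its reverse complement.
XBP1, chr22:28800598-28800626, minus strand: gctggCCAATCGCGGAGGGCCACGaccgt
HSPA5, chr9:125241386-125241414, minus strand: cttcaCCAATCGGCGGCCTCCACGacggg
HSP90B1, chr12:103930211-103930239, plus strand: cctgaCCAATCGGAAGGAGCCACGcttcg
HSP90B1, chr12:103930316-103930344, plus strand: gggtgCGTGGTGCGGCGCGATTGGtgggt
CALR, chr19:12938379-12938407, plus strand: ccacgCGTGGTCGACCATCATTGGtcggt
CANX, chr5:179698773-179698801, plus strand: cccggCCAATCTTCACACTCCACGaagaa
CRELD2, chr22:49918549-49918577, plus strand: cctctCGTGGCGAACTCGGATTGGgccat
HYOU1, chr11:119057375-119057395, minus strand: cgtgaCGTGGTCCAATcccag
HYOU1, chr11:119057269-119057289, minus strand: tgggaCGTGGTCCAATgagta
SDF2L1, chr22:21642109-21642129, plus strand: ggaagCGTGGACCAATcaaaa
HERPUD1, chr16:56932020-56932040, plus strand: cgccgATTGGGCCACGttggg

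XBP1 and HSPA5 have the match in the same orientation, at -52 to -34 and -66 to -48 from the start, and the XBP1 message rose 3.66-fold and that of HSPA5 fell 1.17-fold. The 130 bases before the HSPA5 start (chr9:125241344-125241473, GRCh38.p14, minus strand) are given to show the context, again with the match in capitals. Only exact matches were searched for, so stretches that merely resemble the element are left in small letters.
HSPA5 upstream: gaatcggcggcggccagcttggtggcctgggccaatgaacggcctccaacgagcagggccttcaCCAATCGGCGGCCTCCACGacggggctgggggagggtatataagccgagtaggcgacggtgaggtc
Of the 9 genes with either element 3 rose, 5 fell and 1 was not called, with log2 fold changes from -1.13 (SDF2L1) to 1.87 (XBP1) and a median of -0.12. Of the 32 windows with neither, 8 belonged to genes that rose, 17 to genes that fell and 7 to genes not called, with a median of -0.35. Over all genes tested 41.8% were higher and 41.2% lower. Windows with and without an element were not compared by a test. A match shows only that these letters are in the window.

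Other genes of the pathway, fixed as 7 lists, went in different directions by list. Of 122 listed genes 121 matched a row (SELENOK did not), 4 of them under older symbols, and ERN2 and CREB3L3 did not pass the filter. Of the 119 tested, 49 were higher, 58 lower and 12 not called, with a median log2 fold change of -0.057. That is 41.2% higher and 48.7% lower, beside 41.8% and 41.2% of all genes tested, so the count of rises does not set these genes apart. The third sensor, PERK (EIF2AK3), rose from 20.6 ± 0.630 to 63.5 ± 1.36 CPM, 3.08-fold. All 6 genes of the PERK arm rose: ATF4 (8.20-fold), DDIT3 (17.4-fold), PPP1R15A (45.4-fold), TRIB3 (1.81-fold), CHAC1 (2.95-fold) and ASNS (3.89-fold), most of which answer to other eIF2 kinases as well. Of the proteases that cleave ATF6, site-1 protease (MBTPS1) fell from 226 ± 5.65 to 74.4 ± 1.01 CPM, 3.04-fold, and site-2 protease (MBTPS2) from 135 ± 3.35 to 97.1 ± 6.06 CPM, 1.39-fold. TRAF2, which links IRE1 to kinase signalling, rose from 33.3 to 62.6 CPM.

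All 13 genes of N-glycan transfer and trimming fell (median log2 fold change -0.49), most of all MOGS (glucosidase I, -1.06) and GANAB (glucosidase II alpha, -0.59). Over the 16 alternatives 11 to 13 of them were called lower, and no member had a positive change. Beside each list of this paragraph stand 41.8% higher and 41.2% lower of all genes tested. Of 34 other folding enzymes 22 fell (64.7%), 10 rose (29.4%) and 2 were not called (median -0.33), and the rises numbered 5 with library size only and 2 with no filter on low counts. Among those averaging at least 5 CPM, CNPY4 (-1.35) and TMX4, a membrane thioredoxin (-1.26), fell most, and ERO1B, an oxidase that recharges PDI (0.67), and TMX2 (0.64) rose most. Of 26 other degradation genes, many of them on the cytosolic side, 17 rose (65.4%), 5 fell (19.2%) and 4 were not called (median 0.20), against 12 and 5 with library size only and 11 and 8 with no filter. DNAJB2 (1.32) and AUP1, which recruits a ubiquitin-conjugating enzyme (0.98), rose most, and the rhomboid protease gene RHBDD1 (-1.05) and the conjugating enzyme gene UBE2G2 (-0.78) fell most.

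Of 28 other genes of translocation and targeting 12 rose (42.9%), 11 fell (39.3%), shares near those of all genes, and 5 were not called (median 0.001), against 9 and 15 with library size only and 7 and 16 with no filter. SPCS3, a subunit of the signal peptidase, fell 5.65-fold from 124 ± 2.65 to 21.9 ± 0.969 CPM. Of the other listed subunits, SPCS2 fell from 63.8 to 51.8 CPM (log2 fold change -0.30), SEC11A rose from 188 to 206 CPM (0.13, smaller than the shift with no filter), and SPCS1 and SEC11C were not called, going from 92.3 to 92.7 CPM and 89.0 to 88.9 CPM. TRAM2 fell from 64.7 to 19.4 CPM, and the insertase subunits EMC9 (1.52) and EMC8 (0.92) rose most. SPCS1, SPCS2, SEC11A, SEC11C, SSR4 and SEC61A2 fall outside the naming rule and were picked out after their values were seen. Of 5 messages known as IRE1 substrates in other systems 4 fell (80%, beside 41.2% of all genes tested). These were SCARA3 (-1.49), HGSNAT (-0.998), SPARC (-0.75) and COL6A1 (-0.63). BLOC1S1, the best known of them, was not called, at 2.51 ± 0.255 CPM without and 2.82 ± 0.164 CPM with MGO (adjusted p = 0.293). It had only 53, 49 and 61 counts in MGO libraries 1, 3 and 4. Whether IRE1 cut these messages was not tested.

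**Figure D4:**
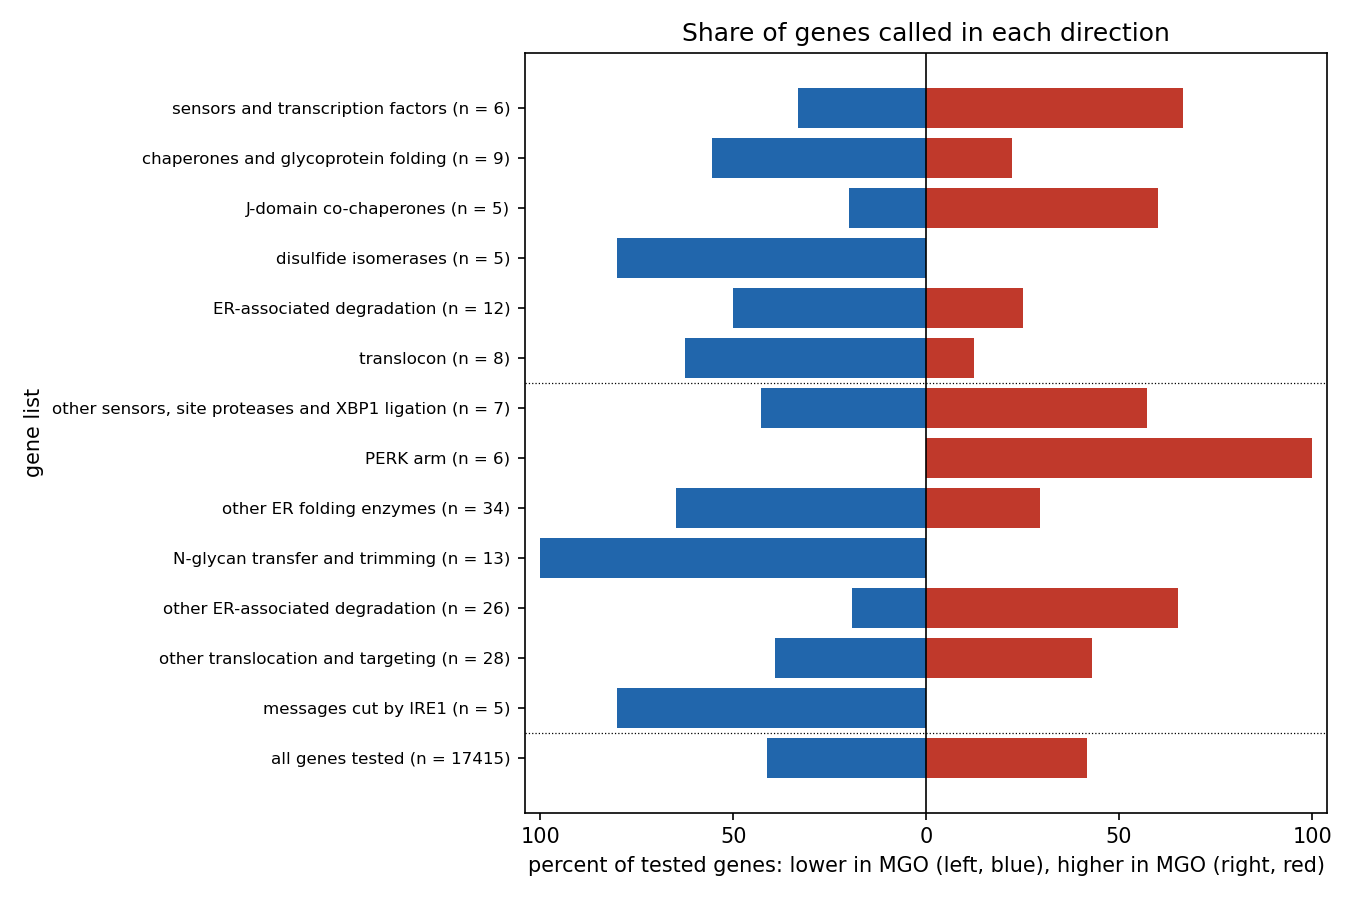
Percent of tested genes called lower (blue, left) and higher (red, right) in MGO (x axis) for the 6 roles of the 45 genes, the 7 lists of other pathway genes and all genes tested (y axis). All genes tested show 41.2% lower and 41.8% higher, all 13 N-glycan genes were lower and all 6 PERK arm genes higher.

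Levels per kilobase of merged exon (GENCODE release 29, basic set) allow only a rough comparison of the genes' levels. The annotation used in counting is not given. Exon bases shared with other genes, such as 14.2% of CALR and 20.3% of P4HB, are included. In untreated cells CALR stood at 432, P4HB at 266, CANX at 234 and HSP90B1 at 211 CPM per kilobase, and in MGO at 457, 208, 214 and 232. PDIA4 and HSPA5 were close in untreated cells, at 112 and 108 CPM per kilobase, and apart in MGO, at 43.7 and 92.2. XBP1 went from 31.0 to 114 CPM per kilobase and so passed HSPA5 by this measure. In CPM without regard to length it stayed below HSPA5 in MGO, at 232 against 360. ERN1, at 1.30, was the lowest of the 45 in untreated cells. Summed over all 45 genes, the level was 7448, 7478 and 7468 CPM without MGO and 6604, 6540.2 and 6563 CPM in MGO libraries, a ratio of 0.880.

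**Figure D5:**
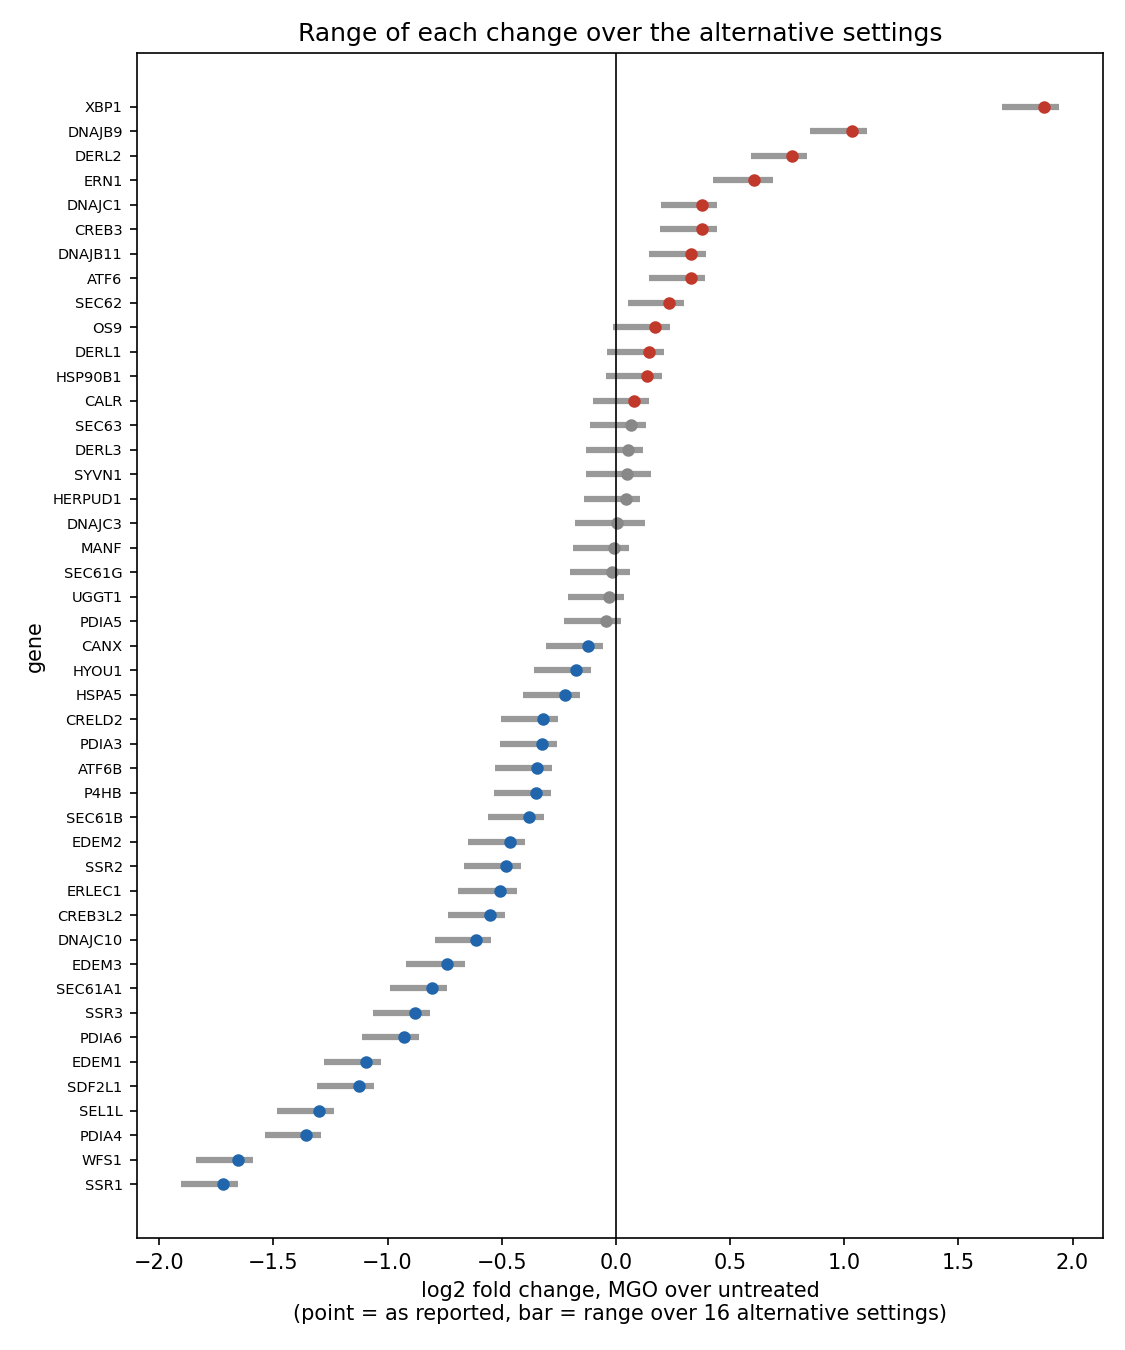
Log2 fold change of each of the 45 genes (y axis) as reported (point, coloured red for higher, blue for lower and grey for not called) and its range over 16 alternative settings (grey bar), on the x axis. XBP1 ran from 1.69 to 1.94 and SSR1 from -1.90 to -1.66, while for genes with a change near 0 the bar crosses 0.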

How the data were processed

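The authors deposited a table of raw counts by gene symbol for each library. Per the labels' protocols, 500 ng of total RNA (RIN 10) was poly(A)-selected, amplified with 8 PCR cycles and sequenced as paired reads of 100 bases. Per the submitters' processing notes, HTSeq 0.9.1, Picard, STAR 2.4 and Trim Galore were used, and the build was hg38. The sources used here do not give the annotation or strand setting. Counts were fitted over all genes with edgeR 4.0.16 in R 4.3.3 (filterByExpr, TMM, robust glmQLFit, two-sided glmQLFTest, 4 residual degrees of freedom, Benjamini-Hochberg adjustment at 0.05). The SE is the log2 fold change over the square root of F. Alternatives were scaling by library size, RLE or upper quartile, 2 other filters, each library left out, both libraries numbered 1 left out, a replicate block, DESeq2 1.42.0, limma 3.58.1 voom, and untreated libraries thinned to the mean MGO total. The fit was tested on simulated data in which few genes changed, unlike here, so scaling when most genes move was not checked. Dates stood in place of symbols in 29 rows (0.178% to 0.242% of counts), 24 of which were tested and none named. The 45 genes and all lists were chosen with earlier results of these data known. All 45 are described, and of each other list the 2 called rises and 2 called falls of largest size averaging at least 5 CPM are named, or the whole list if under 7 genes. Without molecular identifiers, reads copied by PCR are not separate molecules.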

Additional observations from a re-analysis of the deposited data

How the results depend on the processing

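Under all 16 alternatives 30 of the 45 genes kept their call and direction, and how many of all genes did so was not counted. The 2 settings that moved most did so through a common shift. With no filter on low counts, 8 of the 45 and 29 of the other pathway genes were called higher, against 13 and 49 as reported, and the log2 fold changes of HSP90B1 (-0.045), CALR (-0.10), DNAJC3 (-0.18), SYVN1 (-0.13), HERPUD1 (-0.14), DERL1 (-0.037), OS9 (-0.012) and SEC63 (-0.12) changed sign, as did DERL3, which was called in neither fit. With library size only, the one called gene to do so was CALR (-0.025). Under both settings MANF, PDIA5, SEC61G and UGGT1 became called lower. With no filter the class medians became 0.17 for sensors and transcription factors, -0.27 for ATF6-type and -0.72 for XBP1-type genes. They became 0.25, -0.20 and -0.64 with library size only. With at least 1 CPM in every library the ATF6-type and XBP1-type medians were -0.025 and -0.47, and with thinned untreated libraries the ATF6-type median was -0.037. Leaving out 1 library at a time gave medians of 0.29 to 0.36 for sensors and transcription factors. For ATF6-type genes they were -0.13 to -0.081 and for XBP1-type genes -0.59 to -0.53. The summed level of all 45 genes in MGO over untreated was 0.894 with RLE, 0.818 with library size only, 0.892 with the upper quartile, 0.775 with no filter and 0.921 with at least 1 CPM in every library, and 0.858 to 0.876 with 1 library left out. Numbers 1 and 4 occur in both groups. With the replicate number as a block, which leaves 1 residual degree of freedom, 12 of the 45 were higher and 22 lower, and the calls on CALR and CANX were lost. Deviations of same-numbered libraries correlated at 0.020 and -0.008. Each value rests on 1 pair of libraries, and whether same-numbered libraries share a batch or culture was not tested. Depth limits DERL3, which had 129 to 139 counts in MGO libraries, the fewest of the 45 genes.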
